A study of Mus musculus with 9 samples.

Results

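The enzymes described here make serine from a glycolytic intermediate and pass its one-carbon unit through the folate pathway. They are 9 genes of the 55471 listed, found by their Ensembl identifiers: Phgdh, Psat1 and Psph of serine synthesis, Shmt2, Mthfd2, Mthfd1l and Aldh1l2 of the mitochondrial folate arm, and Shmt1 and Mthfd1 of the cytosolic folate arm. The samples were 9 cultures of mouse articular chondrocytes, the cells of joint cartilage, taken from wild-type mice at postnatal day 5 and analysed by RNA sequencing in 3 groups of 3. The Control cultures received a control adenovirus (named Ad-Control in the study's methods), the Ad-OSCAR cultures an adenovirus that carries OSCAR, and the Ad-OSCAR + 5-ASA cultures the OSCAR virus followed by 10 µM 5-ASA. OSCAR is a receptor for collagen best known from osteoclasts. 5-ASA (5-aminosalicylic acid, mesalamine) is an anti-inflammatory drug of bowel disease. According to the methods, every plate was coated with a collagen peptide that OSCAR binds and IL-1β was in none of the cultures, so no group lacks a virus or the peptide, and no Control cultures with 5-ASA were analysed here. The labels and the methods differ on the dose of virus and on times: the labels give 400 MOI (infectious viral particles per cell), 3 days of culture before a 2 h infection and 36 h before 5-ASA, whereas the methods give a higher dose, 2 days of culture and 24 h with or without 5-ASA. The study's statistics section says in general that n counts biologically independent samples and that data stem from 3 or more independent experiments. It does not name the RNA sequencing there. Nothing in these sources says that the 3 cultures of a group came from separate animals, so p-values measure only the spread between these cultures, which may be technical.

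Serine is made from 3-phosphoglycerate in a chain of reactions: PHGDH oxidizes it, PSAT1 adds an amino group and PSPH removes the phosphate. The SHMT enzymes then split serine into glycine and a one-carbon unit bound to tetrahydrofolate, and this unit is carried to formate inside mitochondria and taken up again by MTHFD1 in the cytosol, where it serves purine, thymidylate and methionine synthesis. Glycine is also the most frequent amino acid of collagen, the main protein of cartilage matrix, and proliferating cells are known to depend on this pathway. In many cell types the transcription factor ATF4 is known to drive the serine synthesis genes and the mitochondrial folate genes.

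Estimated counts per culture summed to between 19733448 and 28192740. The OSCAR message behaved as the labels say, with 4, 3 and 4 counts in the Control cultures, 187278, 173445 and 179480 counts in the Ad-OSCAR cultures and 91718, 80766 and 94199 counts in the Ad-OSCAR + 5-ASA cultures. Oscar itself was therefore lower under 5-ASA (log2 fold change -0.97, SE 0.06, adjusted p = 1.76e-08, quasi-likelihood test of edgeR, p adjusted by Benjamini and Hochberg's method over all genes tested, as everywhere here). The 10 chondrocyte markers, which include Col2a1, Acan and Sox9, summed to 37905 to 43524 CPM (counts scaled to a common library size after TMM normalization) in Control, 2367 to 2697 CPM in Ad-OSCAR and 2828 to 3281 CPM with 5-ASA, and all 10 fell with OSCAR. Of 9 macrophage markers, Ptprc, Adgre1, Itgam and Fcgr1 had at most 3 counts in every culture, and the list summed to 17.5 to 20.4 CPM, 36.7 to 37.2 CPM and 30.2 to 31.6 CPM in the same order of groups. Of the 5 tested, 3 rose with OSCAR (Cd68, Cd14 and Lyz2), 1 fell (Mrc1) and 1 did not pass (Csf1r). Fibroblast and synovial lining markers summed to 545 to 571, 1115 to 1135 and 1007 to 1062 CPM. Most of this sum is Prg4, which rose from a mean of 247 CPM in Control to 897 CPM in Ad-OSCAR. Of the 5 of these 7 markers that were tested, 1 rose with OSCAR (Prg4) and 3 fell (Pdgfra, Thy1 and Dpt). The 6 endothelial markers stayed at or below 2.80 CPM and the 6 skeletal muscle markers at or below 1.68 CPM in sum. The 6 osteoblast markers summed to 58.5 to 66.4 CPM, 10.5 to 15.3 CPM and 24.4 to 26.2 CPM. In bulk RNA, fewer cells of a type and less RNA per cell cannot be told apart.

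The first comparison asks what OSCAR overexpression did to the enzymes. All 9 fell in Ad-OSCAR cultures, 9 of 9 at an adjusted p below 0.05, and in each of them every Ad-OSCAR culture lay below every Control culture. Over all 15362 genes tested, 32.2% passed the same test downward (65.0% in either direction), and 34.0% had Ad-OSCAR ranges wholly below the Control ranges. The median log2 fold change of the 9 enzymes was -1.38 against 0.02 over all genes tested. By the study's own limits (a log2 fold change beyond 1.5 with an adjusted p below 0.05) 4 of the 9 fell, namely Phgdh, Psat1, Mthfd1l and Aldh1l2, beside 5.39% of all genes tested that met these limits downward. The fall ranged from 1.82-fold for Mthfd2 to 7.61-fold for Aldh1l2.

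**Figure D1:**
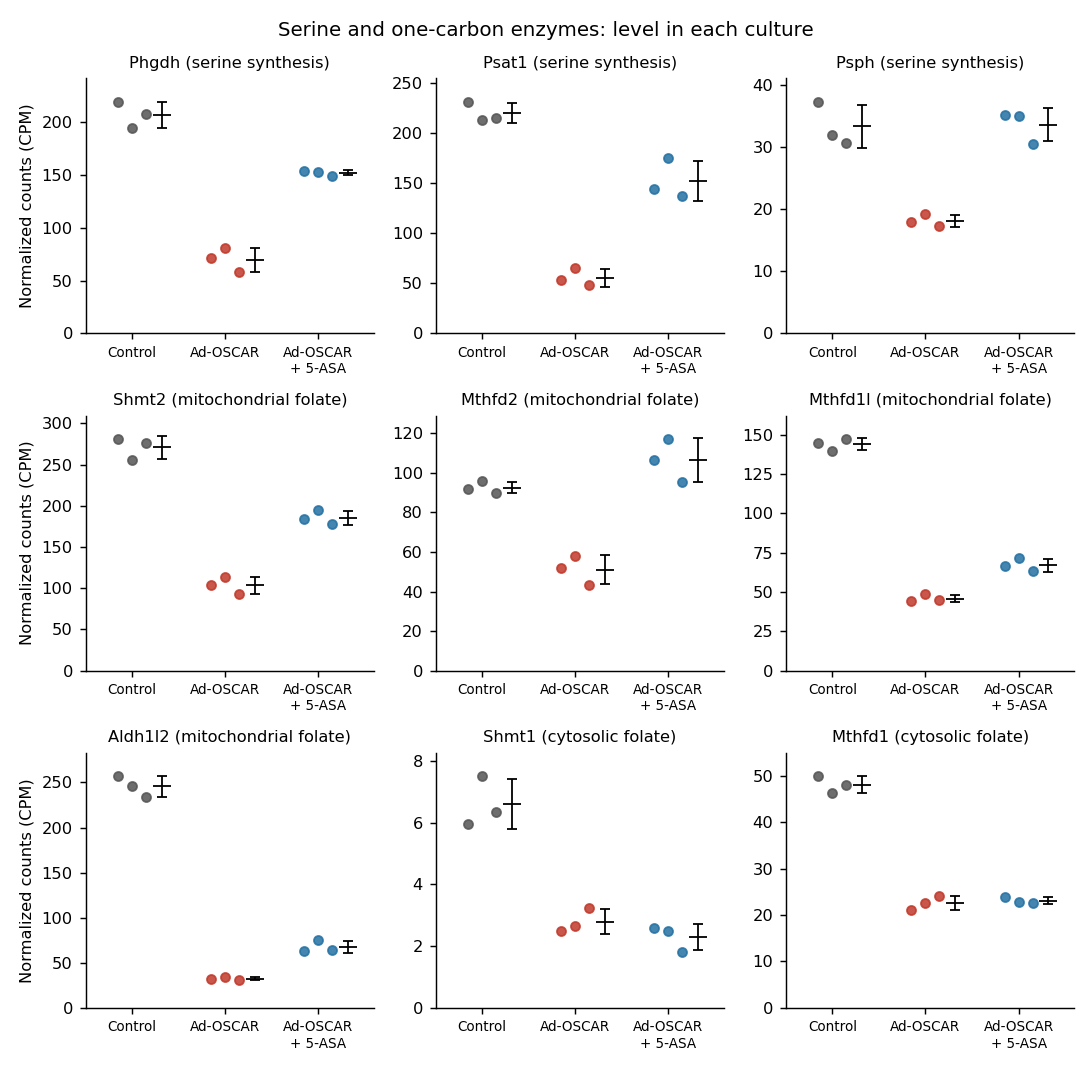
Level of each enzyme in CPM (vertical axes, each starting at 0) in every culture, with the mean and SD of 3 cultures beside the points for Control, Ad-OSCAR and Ad-OSCAR + 5-ASA. All 9 enzymes are lower in Ad-OSCAR than in Control, and 7 are higher again with 5-ASA, whereas Shmt1 and Mthfd1 keep overlapping levels in both OSCAR groups.

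The serine arm opens with Phgdh (ENSMUSG00000053398.11, chr3:98313170-98339990, minus strand, GRCm38), the dehydrogenase that commits 3-phosphoglycerate to serine. Its levels in CPM, for cultures 1, 2 and 3 of each group, were 219.7, 195 and 208 in the Control cultures, 71.5, 80.6 and 58.0 in the Ad-OSCAR cultures and 154, 153 and 149.5 in the Ad-OSCAR + 5-ASA cultures. The Ad-OSCAR cultures were all far below the others, and the 5-ASA cultures lay between both without overlap. Relative to the Control mean, Phgdh stood at 33.8% in Ad-OSCAR cultures (log2 fold change -1.57, SE 0.08, adjusted p = 6.33e-12).

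Because Phgdh is the entry enzyme and, of the 8 enzymes with a promoter window, the one in which a searched motif was found before the start site, the 120 bases before its start site are shown. The sequence is RefSeq's (GRCm38.p6, chr3:98339970-98340089, minus strand, 5′ to 3′ in the direction of the gene). Capitals mark TGACNNNGC, the core of the antioxidant response element that NRF2 binds, read here on the reverse strand.
Phgdh: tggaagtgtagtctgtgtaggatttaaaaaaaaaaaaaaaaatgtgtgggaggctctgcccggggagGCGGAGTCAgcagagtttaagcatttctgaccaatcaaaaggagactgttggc
The match lies at bases -53 to -45 from the start site. It was chosen for printing after the search, and 10.2% of all promoter windows held this motif before the start site.

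Psat1 (ENSMUSG00000024640.9, chr19:15904678-15947337, minus strand) encodes the aminotransferase of the pathway and fell the most in this arm. Its cultures gave 232, 213 and 216 in the Control cultures, 53.5, 65.0 and 47.9 in the Ad-OSCAR cultures and 145, 175 and 137 in the Ad-OSCAR + 5-ASA cultures, in CPM. The highest Ad-OSCAR culture, at 65.0 CPM, lay far below the lowest Control culture, at 213 CPM. The Ad-OSCAR mean was 25.2% of the Control mean (log2 fold change -1.99, SE 0.09, adjusted p = 1.63e-12), which placed Psat1 at rank 532 from the lowest of the 15362 log2 fold changes. Psph (ENSMUSG00000029446.14, chr5:129765558-129787449, minus strand), the phosphatase of the last step, was the least abundant and least changed of the arm. It measured 37.3, 31.9 and 30.7 in the Control cultures, 17.9, 19.1 and 17.2 in the Ad-OSCAR cultures and 35.2, 35.0 and 30.5 in the Ad-OSCAR + 5-ASA cultures in CPM. The 3 Ad-OSCAR cultures sat close together and below all others, at 54.3% of the Control mean (log2 fold change -0.88, SE 0.08, adjusted p = 1.35e-08).

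In mitochondria, Shmt2 (ENSMUSG00000025403.5, chr10:127517123-127522444, minus strand) splits serine into glycine and a one-carbon unit. Shmt2 gave 281, 255 and 277 in the Control cultures, 104, 114 and 93.3 in the Ad-OSCAR cultures and 184, 195 and 178 in the Ad-OSCAR + 5-ASA cultures in CPM. The order of groups was that of Phgdh, with no overlap between any pair of groups, and the Ad-OSCAR mean was 38.3% of Control (log2 fold change -1.38, SE 0.06, adjusted p = 1.03e-12). Mthfd2 (ENSMUSG00000005667.8, chr6:83305691-83325908, minus strand) is the dehydrogenase and cyclohydrolase that oxidizes the unit, an enzyme known for its high level in embryonic and tumor cells. Mthfd2 was measured at 91.7, 95.7 and 90.1 in the Control cultures, 52.0, 57.8 and 43.3 in the Ad-OSCAR cultures and 107, 117 and 95.2 in the Ad-OSCAR + 5-ASA cultures in CPM. It fell to 55.2% of Control (log2 fold change -0.86, SE 0.08, adjusted p = 5.48e-08), and the 5-ASA cultures reached or passed the Control range.

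Mthfd1l (ENSMUSG00000040675.17, chr10:3973118-4167081, plus strand) releases the unit as formate, the form that leaves the mitochondrion. Its values were 145, 139.7 and 147.5 in the Control cultures, 44.1, 48.6 and 44.7 in the Ad-OSCAR cultures and 66.3, 71.6 and 63.5 in the Ad-OSCAR + 5-ASA cultures, in CPM. Here the 5-ASA cultures stayed nearer to Ad-OSCAR than to Control, and the Ad-OSCAR mean was 31.8% of the Control mean (log2 fold change -1.65, SE 0.06, adjusted p = 1.03e-14). Aldh1l2 (ENSMUSG00000020256.14, chr10:83487450-83534140, minus strand) oxidizes 10-formyltetrahydrofolate to carbon dioxide in mitochondria and in doing so yields NADPH. It measured 257, 246 and 233 in the Control cultures, 31.5, 34.5 and 31.1 in the Ad-OSCAR cultures and 62.6, 75.0 and 64.1 in the Ad-OSCAR + 5-ASA cultures in CPM. This was the steepest fall of the 9, to 13.2% of Control (log2 fold change -2.93, SE 0.07, adjusted p = 8.25e-17), at rank 257 from the lowest of all genes tested.

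The cytosolic arm was lower in level. Shmt1 (ENSMUSG00000020534.14, chr11:60788104-60811718, minus strand), the cytosolic hydroxymethyltransferase, was the least abundant of the 9 with 126, 183 and 120 counts in Control, 73, 65 and 89 counts in Ad-OSCAR and 67, 68 and 46 counts in 5-ASA cultures. In CPM these were 5.95, 7.52 and 6.34 in the Control cultures, 2.48, 2.67 and 3.24 in the Ad-OSCAR cultures and 2.58, 2.48 and 1.82 in the Ad-OSCAR + 5-ASA cultures. It fell to 42.3% of the Control mean with OSCAR (log2 fold change -1.25, SE 0.15, adjusted p = 1.13e-06), with the widest SE of the 9. Mthfd1 (ENSMUSG00000021048.7, chr12:76255298-76319803, plus strand) is the enzyme with 3 activities that takes up formate and interconverts the folate forms in the cytosol. Mthfd1 gave 49.98, 46.4 and 47.9 in the Control cultures, 21.1, 22.5 and 24.04 in the Ad-OSCAR cultures and 23.9, 22.7 and 22.5 in the Ad-OSCAR + 5-ASA cultures in CPM. The 3 Ad-OSCAR and the 3 5-ASA cultures overlapped and all were below the Control cultures, with an Ad-OSCAR mean of 46.8% of Control (log2 fold change -1.09, SE 0.06, adjusted p = 8.03e-12).

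The second comparison set the 5-ASA-treated against the untreated Ad-OSCAR cultures, so that the groups differ in the drug. It uses the same Ad-OSCAR cultures as the first. Of the 9 enzymes, 7 rose and 0 fell at an adjusted p below 0.05 in edgeR (0 fell also at an unadjusted p below 0.05 and in DESeq2), beside 10.4% of all genes tested that rose and 17.8% that passed in either direction. The 7 were the 3 enzymes of serine synthesis and the 4 of the mitochondrial arm, and in all 7 every treated culture lay above every untreated culture, which 17.8% of all genes tested also showed. The 2 enzymes that did not pass were those of the cytosolic arm. The median of the 9 was 0.89 on the log2 scale, against -0.00435 over all genes tested. The study's methods apply their limits for 5-ASA (a fold beyond 1.5 with an unadjusted p below 0.05) to treated cultures against Ad-Control. Applied here to treated against untreated Ad-OSCAR cultures, 6 of the 9 rose, all of the 7 but Mthfd1l, beside 2.27% of all genes tested.

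Within the serine arm, Psat1 rose 2.75-fold (log2 fold change 1.46, SE 0.09, adjusted p = 1.35e-08) and was number 38 from the highest of the 15362 log2 fold changes. Phgdh rose 2.18-fold (log2 fold change 1.12, SE 0.08, adjusted p = 4.47e-08) and was number 94. Psph, the last step, rose 1.86-fold (log2 fold change 0.89, SE 0.08, adjusted p = 2.86e-07). In the mitochondrial arm, Mthfd2 and Aldh1l2 rose by almost equal folds, 2.09-fold for Mthfd2 (log2 fold change 1.06, SE 0.08, adjusted p = 1.16e-07) and 2.08-fold for Aldh1l2 (log2 fold change 1.06, SE 0.07, adjusted p = 1.41e-08). Shmt2 was 1.79-fold higher (log2 fold change 0.84, SE 0.06, adjusted p = 7.16e-08). The smallest rise was that of Mthfd1l, 1.47-fold (log2 fold change 0.55, SE 0.06, adjusted p = 1.62e-06). In the cytosolic arm, Shmt1 had a log2 fold change of -0.28, adjusted p = 0.303, with a 95% interval from -0.65 to 0.09. Mthfd1 had a log2 fold change of 0.03, adjusted p = 0.764, with an interval from -0.09 to 0.16, so a rise of Mthfd1 as large as the smallest of the 7 lies outside its interval. The intervals of all 7 enzymes that rose lie above both of these intervals. Oscar fell 1.96-fold in the same comparison, and its part in these differences was not tested.

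**Figure D2:**
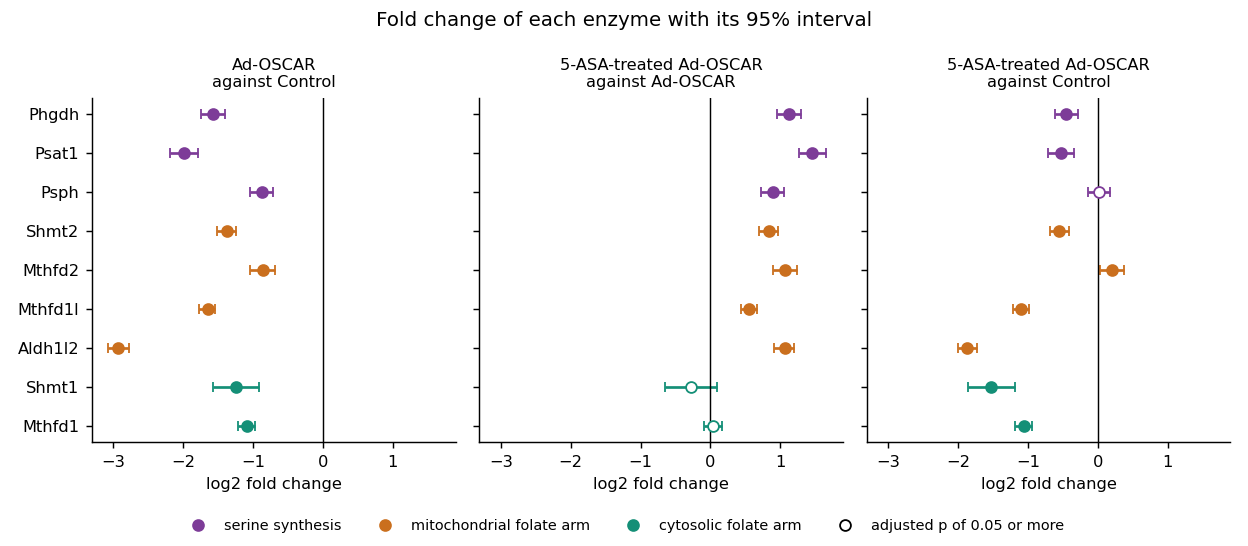
The log2 fold change of each enzyme (horizontal axes) with its 95% interval in the 3 comparisons, colored by arm, with open points where the adjusted p is 0.05 or more. All 9 points lie below 0 in Ad-OSCAR against Control, and with 5-ASA the 7 points of the serine and mitochondrial arms lie above 0 while Shmt1 and Mthfd1 include 0.

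The third comparison, of 5-ASA-treated Ad-OSCAR cultures with Control, uses the same treated cultures as the second and the same Control cultures as the first. Of the 9 enzymes, 7 fell and 1 rose, beside 31.8% of all genes tested that fell and 31.4% that rose (63.2% in either direction). The median of the 9 was -0.55, against 0.01 over all genes tested. Psph stood at 101% of the Control mean and did not pass (log2 fold change 0.01, SE 0.07, adjusted p = 0.915, interval -0.14 to 0.17). Mthfd2 was slightly above Control, at 115% of its mean (log2 fold change 0.20, SE 0.08, adjusted p = 0.0391), with overlapping ranges. This call of Mthfd2 was lost without Control culture 1 (adjusted p = 0.101) or Control culture 3 (adjusted p = 0.111), and without 5-ASA culture 1 (adjusted p = 0.081) or 5-ASA culture 2 (adjusted p = 0.201).

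Below Control remained Phgdh (log2 fold change -0.45, SE 0.08, adjusted p = 7.67e-05), Psat1 (log2 fold change -0.53, SE 0.09, adjusted p = 4.71e-05) and Shmt2 (log2 fold change -0.55, SE 0.06, adjusted p = 4.05e-07), each at between 68.4% and 73.4% of its Control mean. Mthfd1l reached 46.6% (log2 fold change -1.10, SE 0.05, adjusted p = 2.87e-12) and Aldh1l2 27.4% (log2 fold change -1.87, SE 0.06, adjusted p = 2.13e-14). The cytosolic enzymes, whose ranges overlapped those of the untreated Ad-OSCAR cultures, also stayed below Control, with Mthfd1 at 47.9% of Control (log2 fold change -1.06, SE 0.06, adjusted p = 1.51e-11) and Shmt1 at 34.7% (log2 fold change -1.53, SE 0.16, adjusted p = 1.41e-07). By the study's limits for 5-ASA, which its methods set for this contrast, 4 of the 9 were lower than Control (Mthfd1l, Aldh1l2, Shmt1 and Mthfd1), beside 15.3% of all genes tested. The 3 enzymes of the mitochondrial arm after SHMT2 ended at different places against Control. Mthfd1l and Aldh1l2 were below it. Mthfd2 was slightly above it in mean, with overlapping ranges and a call that some single cultures decided.

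To set the arms against each other, levels were compared per length, in TPM (abundances corrected for transcript length and scaled to a common total). The 3 serine enzymes summed to 419, 396 and 387 TPM in Control, 132, 147.9 and 120.1 TPM in Ad-OSCAR and 277, 309 and 273 TPM in 5-ASA cultures. The 4 mitochondrial enzymes summed to 496, 474 and 483 TPM, then 184, 197 and 166 TPM, then 311, 340.0 and 304 TPM. Both sums were lowest in the Ad-OSCAR cultures and lay between the other groups with 5-ASA. The cytosolic pair summed to 35.9, 35.5 and 33.9 TPM in Control, 16.3, 16.3 and 20.0 TPM in Ad-OSCAR and 14.3, 16.5 and 15.3 TPM with 5-ASA. Its share of the TPM of the 6 folate enzymes was 6.76% ± 0.21 (SD, n = 3) in Control, 8.85% ± 1.69 in Ad-OSCAR and 4.61% ± 0.19 in 5-ASA cultures, lowest in the 5-ASA cultures. These sums and shares are descriptions and were given no test.

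The arms were also set against each other step by step, as the ratio of the mitochondrial to the cytosolic enzyme in each culture. The Shmt2 to Shmt1 ratio of TPM was 50.4, 39.8 and 41.2 in Control, 37.1, 43.6 and 22.5 in Ad-OSCAR and 91.6, 94.9 and 90.8 in 5-ASA cultures. Control and Ad-OSCAR overlapped, and all 5-ASA cultures lay above both. For Mthfd2 to Mthfd1 it was 3.17, 3.19 and 3.30, then 3.88, 4.05 and 2.79, then 8.25, 7.85 and 6.96, again with overlap of Control and Ad-OSCAR and higher values in all 5-ASA cultures. Mthfd1l to Mthfd1 differed from these: it was 2.22, 2.25 and 2.51 in Control, 1.60, 1.67 and 1.37 in Ad-OSCAR and 2.38, 2.21 and 2.19 with 5-ASA, so that the Ad-OSCAR cultures were lowest and the other groups overlapped. Ad-OSCAR culture 3 had the lowest value of its group in all 3 ratios, and the Shmt2 to Shmt1 ratio rests on the small counts of Shmt1 given above. From Ad-OSCAR to 5-ASA cultures, mean Shmt1 went from 3.02 to 1.76 in TPM and from 2.79 to 2.29 in CPM. The size of this ratio thus also depends on the length correction of Shmt1.

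**Figure D3:**
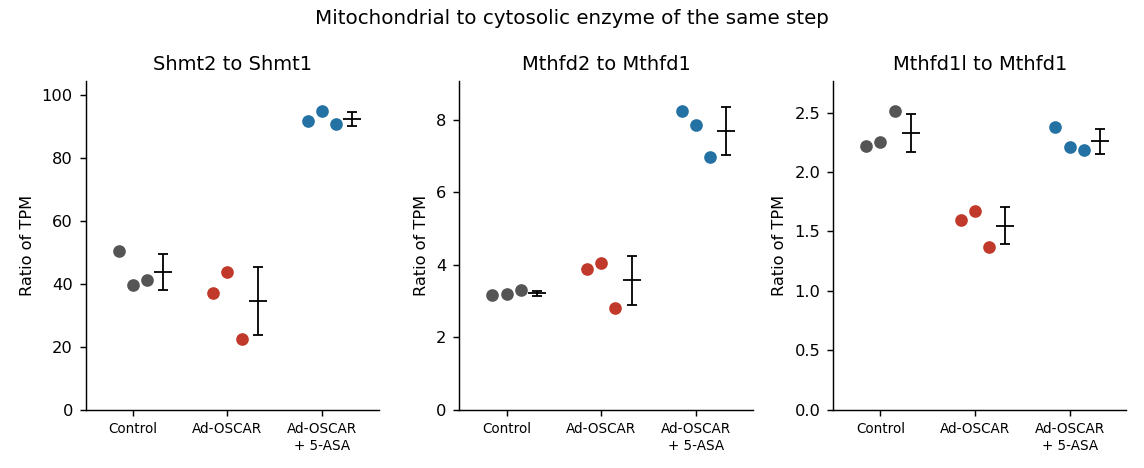
Ratio of TPM of the mitochondrial to the cytosolic enzyme (vertical axes from 0) in each culture, with mean and SD of 3 cultures per group. The Shmt2 to Shmt1 ratio averages 43.8 in Control, 34.4 in Ad-OSCAR and 92.4 in 5-ASA cultures, and the Mthfd2 to Mthfd1 ratio 3.22, 3.57 and 7.69, whereas the Mthfd1l to Mthfd1 ratio is lowest in Ad-OSCAR.

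Ordered by mean TPM in Control, the enzymes ran from Shmt2 (241 ± 11.9 TPM, SD, n = 3) through Phgdh (211 ± 6.58), Psat1 (152 ± 5.90), Mthfd2 (95.1 ± 3.11), Aldh1l2 (79.4 ± 5.42), Mthfd1l (68.7 ± 1.47), Psph (37.3 ± 4.24) and Mthfd1 (29.6 ± 1.57) to Shmt1 (5.55 ± 0.545), and no neighbours in this order overlapped. In Ad-OSCAR cultures Aldh1l2 dropped from the fifth to the eighth place, at 10.4 ± 0.326 TPM, below Mthfd1 at 14.5 ± 1.37 TPM. Mthfd2 (51.3 ± 5.72 TPM) came before Psat1 (41.9 ± 4.07 TPM) there, with overlapping ranges. In 5-ASA cultures Mthfd2 and Psat1 again overlapped, at 104 ± 10.8 and 102 ± 12.7 TPM, Psph (36.7 ± 0.810 TPM) stood above Mthfd1l (30.7 ± 1.60 TPM), and Aldh1l2 was at 20.6 ± 2.91 TPM. Shmt2 and Phgdh led and Shmt1 was last in all 3 groups.

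Some of the loci share bases with other genes, and whether the counting used strand was not stated, so reads of partners on opposite strands may be mixed. Psph overlaps Cct6a (2897 to 4220 counts per culture), Shmt2 overlaps Ndufa4l2 (7645 to 8932), Aldh1l2 overlaps D10Wsu102e (1344 to 1976) and Shmt1 overlaps Smcr8 (797 to 1670), all on the other strand. Partner counts were above those of the enzyme itself in every culture for Psph, Shmt2 and Shmt1. Phgdh has a processed pseudogene, Phgdh-ps1, which held 6 to 30 counts. Estimated counts of Phgdh, Psph and Aldh1l2 had a fractional part, with no tolerance applied, in all 9 cultures.

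The genes around these enzymes were read from lists written from textbook knowledge. Over all genes tested, 32.2% fell and 65.0% passed in either direction with OSCAR. With 5-ASA against untreated Ad-OSCAR cultures, 10.4% rose and 17.8% passed in either direction. The counts of each list below stand beside these shares, and no list was tested as a set. In the list of mitochondrial folate and serine transport, 6 of 7 genes were tested, of which 3 rose and 3 fell with OSCAR and 3 rose with 5-ASA. Mthfd2l, the sister enzyme of Mthfd2 known from adult tissues, went the other way to Mthfd2: it rose from 12.2 ± 0.911 CPM (SD, n = 3) to 24.4 ± 2.03 CPM with OSCAR (log2 fold change 1.01, SE 0.08, adjusted p = 3.57e-09) and was at 25.1 ± 1.54 CPM with 5-ASA (log2 fold change 0.04, adjusted p = 0.776). Sardh, which feeds one-carbon units from sarcosine, fell to 51.1% of Control (log2 fold change -0.97, SE 0.06, adjusted p = 9.58e-11) and rose with 5-ASA (log2 fold change 0.50, SE 0.06, adjusted p = 1.46e-05). Slc25a32, the mitochondrial folate carrier, fell (log2 fold change -0.57, SE 0.07, adjusted p = 7.96e-07) and had a log2 fold change of 0.08, adjusted p = 0.513, with 5-ASA. The serine carriers moved little: with 5-ASA, Sfxn1 rose by 0.20 on the log2 scale (adjusted p = 0.0104), a call lost without Ad-OSCAR culture 1 (adjusted p = 0.0733) or 5-ASA culture 1 (adjusted p = 0.069). Its relative Sfxn3 rose by 0.18 on the log2 scale (adjusted p = 0.0167), a call lost without Ad-OSCAR culture 1 (adjusted p = 0.0603), Ad-OSCAR culture 3 (adjusted p = 0.0696) or 5-ASA culture 3 (adjusted p = 0.0724).

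The glycine cleavage system, which breaks glycine down to a one-carbon unit, had 2 genes that rose, 1 that fell and 1 that did not pass with OSCAR, and 0 of 4 passed with 5-ASA in edgeR, also 0 at an unadjusted p below 0.05 and 0 in DESeq2. Amt, its aminomethyltransferase, rose from 3.13 ± 0.680 CPM to 6.43 ± 0.314 CPM (log2 fold change 1.02, SE 0.18, adjusted p = 6.32e-05), Dld rose (log2 fold change 0.23, adjusted p = 0.00176) and Gcsh fell (log2 fold change -0.24, adjusted p = 0.00107). Gldc, the glycine decarboxylase, had only 6, 19 and 2 counts in Control, 28, 17 and 24 in Ad-OSCAR and 18, 18 and 7 in 5-ASA cultures. Its log2 fold change with OSCAR was 1.02, adjusted p = 0.0597, with an interval from 0.05 to 1.99, and without Control culture 2 it passed (adjusted p = 0.00293). With 5-ASA, Gldc had a log2 fold change of -0.63, adjusted p = 0.347.

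In the list of cytosolic folate, thymidylate and folate uptake genes, 9 of 12 were tested: 2 rose, 5 fell and 2 did not pass with OSCAR, and 2 rose, 1 fell and 6 did not pass with 5-ASA. Aldh1l1, the cytosolic counterpart of Aldh1l2, fell about as far as that gene, from 40.7 ± 0.420 CPM to 5.14 ± 0.599 CPM (log2 fold change -2.99, SE 0.08, adjusted p = 4.33e-16), and rose to 8.17 ± 0.391 CPM with 5-ASA (log2 fold change 0.67, SE 0.09, adjusted p = 5.58e-05). So 1 cytosolic folate enzyme outside the 9 did rise with 5-ASA. Slc19a1, the reduced folate carrier, fell (log2 fold change -0.89, SE 0.08, adjusted p = 1.78e-08) and rose with 5-ASA (log2 fold change 0.53, SE 0.08, adjusted p = 0.000148). Tyms, the thymidylate synthase, fell with OSCAR (log2 fold change -0.46, SE 0.06, adjusted p = 1.02e-06) and fell further with 5-ASA (log2 fold change -0.19, adjusted p = 0.0256). That second call of Tyms was lost in DESeq2 (adjusted p = 0.0849) and without Ad-OSCAR culture 3 (adjusted p = 0.102), 5-ASA culture 1 (adjusted p = 0.113) or 5-ASA culture 3 (adjusted p = 0.051).

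The next lists hold the consumers of one-carbon units and of serine. Of the 9 genes of purine synthesis, 9 fell with OSCAR (median -0.57) and 0 passed with 5-ASA in edgeR (median 0.05), also 0 at an unadjusted p below 0.05 and 0 in DESeq2. Among them Impdh1 fell to 50.9% of Control (log2 fold change -0.97, adjusted p = 3.26e-11), Impdh2 to 51.5% (log2 fold change -0.96, adjusted p = 3.21e-12) and Paics to 62.6% (log2 fold change -0.68, adjusted p = 5.16e-10). In the methionine cycle and transsulfuration, 6 of 10 were tested, 4 fell and 1 rose with OSCAR, including falls of Ahcy (log2 fold change -0.80, adjusted p = 5.89e-11), Mtr (log2 fold change -0.63, adjusted p = 2.12e-08) and Cth (log2 fold change -0.54, adjusted p = 5.15e-05). With 5-ASA, Cth was the 1 that rose, from 25.4 ± 3.78 CPM to 70.3 ± 8.23 CPM against 36.8 ± 1.38 CPM in Control (log2 fold change 1.48, SE 0.09, adjusted p = 9.91e-09). Cth encodes cystathionine gamma-lyase, which makes cysteine from the cystathionine built with serine, and is a known ATF4 target. Of the genes that use or break down serine and glycine, 7 of 9 were tested and 3 fell with OSCAR, beside 32.2% of all genes tested. They were Ptdss1 (log2 fold change -0.44, adjusted p = 1.45e-07), Sptlc1 (log2 fold change -0.18, adjusted p = 0.00246) and Gcat (log2 fold change -1.68, adjusted p = 6.55e-09), the last uncertain because the symbol is listed for 2 Ensembl genes. With 5-ASA 0 of these 7 passed in edgeR, 1 was lower at an unadjusted p below 0.05 and 0 passed in DESeq2.

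Glycolysis supplies the starting substrate of serine. All 5 glycolytic genes around 3-phosphoglycerate fell with OSCAR (median -0.64), among them Pgk1 to 47.3% of Control (log2 fold change -1.08, adjusted p = 9.42e-14), Eno1 to 48.3% (log2 fold change -1.05, adjusted p = 3.92e-14) and Pkm to 64.3% (log2 fold change -0.64, adjusted p = 1.15e-10). With 5-ASA only Eno1 of these 5 rose, by 0.11 on the log2 scale (adjusted p = 0.0476), and it passed in 4 of 15 alternative fits (adjusted p from 0.00382 to 0.17). Among those that lost it were fits without Control culture 1 or 3, any 1 Ad-OSCAR culture, or 5-ASA culture 1 or 2. In the same comparison 0 of the 5 fell in edgeR, 3 were lower at an unadjusted p below 0.05, and DESeq2 called 1 higher and 1 lower.

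**Figure D4:**
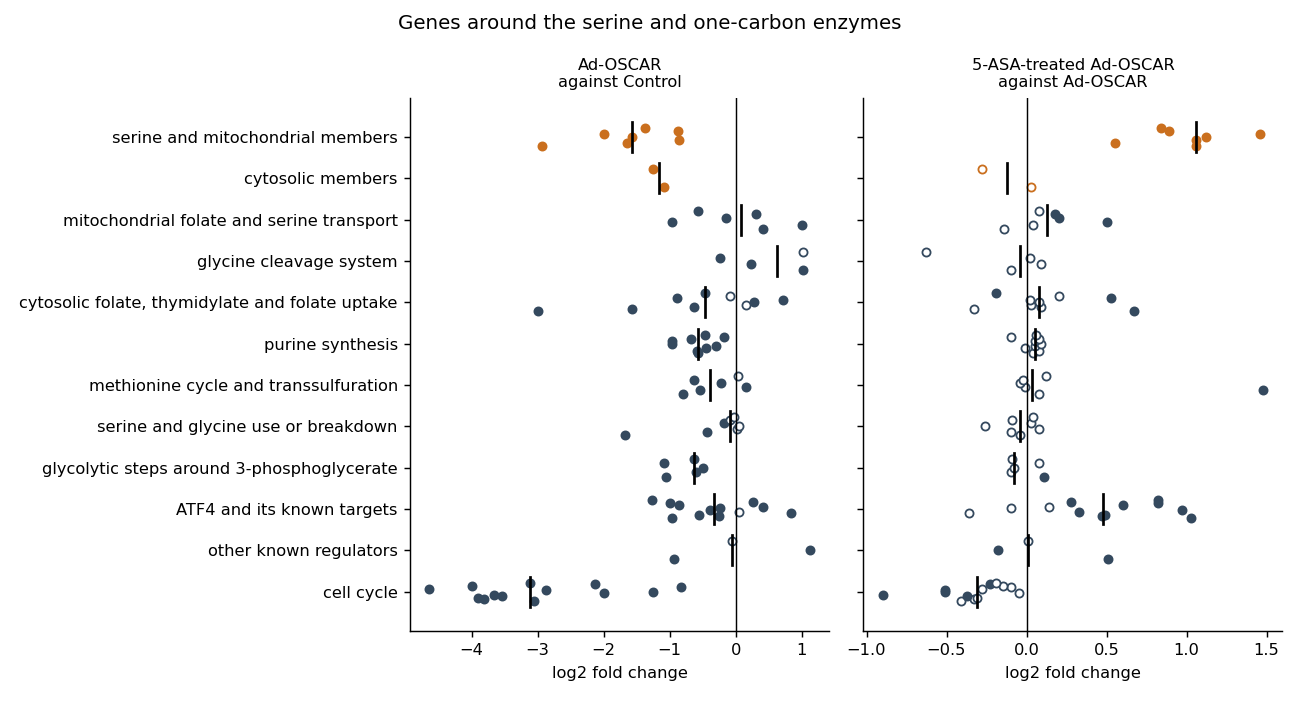
The log2 fold change of each tested gene of the surrounding lists (points along the horizontal axes, 1 row per list, with the enzymes themselves in the top rows) with OSCAR and with 5-ASA. Open points have an adjusted p of 0.05 or more, and black bars mark each row's median. The points of purine synthesis, glycolysis and the cell cycle lie below 0 with OSCAR, and with 5-ASA the ATF4 row has its median at 0.48 while the purine and glycolytic rows lie near 0.

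Atf4, whose protein is a known activator of these enzymes, was at 385, 379 and 369 CPM in Control, 319, 334 and 294 CPM in Ad-OSCAR and 445, 461 and 408 CPM in 5-ASA cultures. The 3 groups did not overlap, and the message fell with OSCAR (log2 fold change -0.26, SE 0.05, adjusted p = 0.00031) and rose with 5-ASA (log2 fold change 0.47, SE 0.05, adjusted p = 5.23e-06). ATF4 is regulated mainly through translation, which these data do not measure. Over Atf4 and 11 known targets, 8 fell, 3 rose and 1 did not pass with OSCAR (median -0.32), and 9 rose, 0 fell and 3 did not pass with 5-ASA in edgeR (median 0.48; 1 was lower at an unadjusted p below 0.05 and 0 fell in DESeq2). Asns, the asparagine synthetase, went from 182 ± 8.44 CPM to 92.6 ± 12.3 CPM (log2 fold change -0.97, SE 0.08, adjusted p = 3.49e-09) and to 189 ± 17.5 CPM with 5-ASA (log2 fold change 1.03, SE 0.08, adjusted p = 7.94e-08). Trib3 had the largest fall with OSCAR in the list (log2 fold change -1.27, SE 0.07, adjusted p = 3.41e-11) and rose with 5-ASA (log2 fold change 0.82, SE 0.07, adjusted p = 5.61e-07). Nupr1, a stress-induced chromatin protein, fell (log2 fold change -0.99, adjusted p = 5.82e-09) and rose with 5-ASA (log2 fold change 0.82, adjusted p = 1.75e-06). Likewise Chac1, which degrades glutathione, fell (log2 fold change -0.39, adjusted p = 0.000179) and rose with 5-ASA (log2 fold change 0.97, adjusted p = 4.94e-08).

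Among the other known regulators 3 of 4 were tested. Myc fell with OSCAR, from 63.7 ± 2.84 CPM to 33.6 ± 3.11 CPM (log2 fold change -0.93, SE 0.06, adjusted p = 1.73e-10), and rose to 47.5 ± 1.23 CPM with 5-ASA (log2 fold change 0.51, SE 0.06, adjusted p = 1.22e-05). Nfe2l2, which encodes NRF2, a factor known to act on the serine genes through ATF4, rose with OSCAR (log2 fold change 1.13, SE 0.04, adjusted p = 1.2e-13) and fell by 0.18 on the log2 scale with 5-ASA (adjusted p = 0.00623). The 13 cell cycle genes all fell with OSCAR (median -3.12) and their sum went from 718 to 762 CPM in Control to 129.8 to 132 CPM in Ad-OSCAR and 111 to 114 CPM in 5-ASA cultures. Mki67 fell to 4.01% of Control (log2 fold change -4.64, adjusted p = 2.11e-19), Plk1 to 6.28% (log2 fold change -3.99, adjusted p = 1.17e-16) and Bub1 to 6.66% (log2 fold change -3.91, adjusted p = 5.04e-14). With 5-ASA, edgeR called 0 of the 13 higher (0 also at an unadjusted p below 0.05 and 0 in DESeq2) and 5 fell, led by Ccnb2 (log2 fold change -0.90, adjusted p = 0.00478), Mcm2 (log2 fold change -0.51, adjusted p = 3.15e-05) and Mcm5 (log2 fold change -0.51, adjusted p = 0.00443). The cell cycle genes fell beside the enzymes in the first comparison and did not rise beside them in the second. The part of proliferation and of the loss of chondrocyte markers in the enzymes' fall was not tested.

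The pattern of Phgdh over the 9 cultures was most like that of Pck2, the mitochondrial phosphoenolpyruvate carboxykinase, among 9326 genes with a mean of at least 10 CPM (Pearson r of log2 CPM 0.995), followed by Psat1 (0.993), Col8a2 (0.993), Apcdd1 (0.992) and Trib3 (0.992). Among the other enzymes, Shmt2 was number 10 in likeness to Phgdh (r = 0.990), Psph number 150, Aldh1l2 number 330, Mthfd1l number 387, Mthfd2 number 424 and Mthfd1 number 1948 (r = 0.714). Shmt1 was below 10 CPM and was not among the genes compared. For Mthfd2 the nearest were the cationic amino acid transporter Slc7a3 (0.990), Fhl2 (0.990), Slc7a3's relative Slc7a1 (0.986), Inpp5b (0.985) and Asns (0.984), and for Mthfd1 they were Cln6 (0.998), Anxa4 (0.998), Adamtsl3 (0.997), Arf2 (0.997) and Ucma (0.997). Neither of these lists held another of the 9. These correlations rest on 3 groups of cultures and describe the group pattern more than the spread within groups.

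In RefSeq's promoter windows (GRCm38.p6, 250 bases before to 50 after the start site), 9 windows of 8 of the enzymes (all but Aldh1l2) were searched on both strands and set beside all 32851 windows. TGATGNAA, the core of the element bound by ATF4 with C/EBP proteins, was in none of the members' windows and in 3.97% of all windows. CACGTG, the E-box that MYC binds, was in none of them and in 7.15% of all. TGACNNNGC was in the windows of 2 members, Phgdh (shown above) and Psph at bases 4 to 12 after the start site, and in 12.4% of all. With the bases before the start site alone, only Phgdh held it, beside 10.2% of all windows. A match is a run of letters and no evidence of binding, and no match says only that these letters are not in this window.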

How the data were processed

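RNA from 9 cultures was sequenced as stranded mRNA libraries in 2 × 100 base reads. According to the study's methods the authors trimmed reads with BBDuk, aligned them with STAR 2.7.1a to GRCm38 and counted with RSEM 1.3.1. The deposited files give estimated counts, TPM and effective lengths per gene, with no pooling of cultures. Totals were 19733448 to 28192740 counts per culture.

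Estimated counts were rounded to whole numbers and tested with edgeR 4.0.16 (R 4.3.3): quasi-likelihood F test, TMM normalization, filterByExpr by group, all 9 cultures in 1 fit, and Benjamini-Hochberg adjustment over 15362 genes. A gene passed at an adjusted p below 0.05. Standard errors were obtained as |log2 fold change|/√F. All 9 enzymes passed the filter on low counts. CPM use the TMM library sizes. TPM were used as deposited, with no further scaling between cultures, for levels, ratios and sums of genes and without a test. The script was tested on simulated data. DESeq2 1.42.0 was an alternative tool.

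Replicates of a group differed by more than sampling noise (chi-square per degree of freedom of at least 4.03). Gene symbols matched 55144 of 55471 rows. The members and lists were chosen with earlier results of these data known. From each surrounding list, up to 3 genes with the largest change among those that passed were named in each of the first 2 comparisons, with Atf4, Mthfd2l, Tyms, Asns, Trib3, Gldc and Slc25a32 whatever their values. A further gene of this rule is not reported here. Likeness was Pearson's r of log2 CPM with a prior count of 2.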

Additional observations from a re-analysis of the deposited data

How the results depend on the processing

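The 9 falls with OSCAR and the 7 rises with 5-ASA passed in all 15 alternative fits of each: DESeq2, RLE scaling, a block for the replicate number, no filter or a minimum of 10 counts throughout, the compared groups alone, and each culture left out. Leaving out a culture gave 9 of 9, 7 of 9, and 7 to 8 of 9 enzymes past the test in the 3 comparisons, the last through Mthfd2 alone. The study's criteria gave 4 with OSCAR, and 4 for 5-ASA-treated cultures against Control. Signs turned only for values that never passed: without 1 culture, Mthfd1 with 5-ASA ranged from -0.02 to 0.08, Mthfd2l with 5-ASA from -0.01 to 0.10, and Psph against Control from -0.04 to 0.10. Of the 405 alternative values of members' log2 fold changes, 396 kept direction and call. With 5-ASA, the passing glycolytic genes numbered 2 in DESeq2 (1 higher and 1 lower), and 0 without a filter, with at least 10 counts or with only the 2 groups compared, and 0 to 1 without 1 culture. The passing transport genes numbered 1 to 3 without 1 culture. TGACNNNGC was in 1 member upstream of the start site. The cause of these changes was not tested.

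Deviations of same-numbered cultures of different groups correlated from -0.0724 to 0.0402. Differently numbered cultures were not compared in this way, so these values cannot tell whether same-numbered cultures shared animals. With the replicate number as a block, 9, 7 and 8 enzymes passed in the 3 comparisons and no enzyme changed its call, Gldc passed with OSCAR (adjusted p = 0.0436), and Eno1 did not with 5-ASA (adjusted p = 0.0634), leaving 0 glycolytic genes.

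Depth limits Shmt1, with 46 to 183 counts, and Gldc, with 2 to 28 counts. Without Control cultures given 5-ASA, an effect of the drug on cells with little OSCAR was not tested.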
